A study of Rattus norvegicus with 31 samples.

Results

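The translation initiation and elongation factors are the genes whose annotated symbol begins with Eif or Eef. They were found by symbol among probesets that name a single gene, which gave 58 genes measured by 79 probesets, out of 9037 named genes and 16204 probesets in the deposited table. That table holds part of the array's probesets, so a factor whose probesets are not in it is not counted. The probeset with the highest mean over all arrays, called the brightest, stood for its gene first, and every other probeset was then described. A probeset is a group of short probes for a transcript. Of the 58 genes, 41 had a single probeset and 17 had several. A further 5 probesets name more than 1 gene and were not used, so Eif3e and Eif5, which share theirs with a copy or a pseudogene, are not among the 58.

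CA3, a hippocampal subfield that stores and recalls spatial information through its recurrent connections, was dissected by hand from aged male Long-Evans rats, both hemispheres of a rat together, and each rat was measured on its own Affymetrix Rat 230 2.0 array. No genetic change or drug was involved. Rats had been classed before by their memory for a hidden platform in a water maze, as aged unimpaired (AU, in the range of young rats) or aged impaired (AI). All then swam to a visible platform in a single session in a new place. In the spatial task (S) the platform stayed in place among cues around the pool, and in the non-spatial task (NS) it was moved between trials and the cues were removed. Tissue was taken right after a probe trial that followed the training by an hour. Of the unimpaired rats 8 had the spatial task (AU-S) and 8 the other (AU-NS), and of the impaired rats 8 (AI-S) and 7 (AI-NS). With the tasks pooled these are 16 AU-act and 15 AI-act rats. The classes are those of a natural spread among outbred old rats, so a difference between AU and AI is an association with memory status. Basal and young rats are not analysed here.

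Translation begins when the small ribosomal subunit, loaded with initiator tRNA by eIF2, is brought to the capped end of an mRNA. The eIF4F complex binds the cap through eIF4E, is held together by the scaffold eIF4G, and unwinds the mRNA through the helicase eIF4A, which eIF4B and eIF4H assist. The large complex eIF3 ties this assembly to the ribosome. Phosphorylation of eIF2 slows initiation, and 4E-binding proteins keep eIF4E away from eIF4G. Elongation factor 1 then delivers each aminoacyl-tRNA and elongation factor 2 moves the ribosome along. In neurons, control at eIF2 and at eIF4E is known for its part in lasting synaptic change and memory.

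Values are gcRMA signals on the log2 scale, where a difference of 1 is a doubling. Array medians lay between 8.97 and 9.14. The RNA control was the signal of the 3′ control probesets of beta-actin and Gapdh less that of their 5′ ones, and it was larger in AI-act arrays (mean 1.59, range 1.47 to 1.92) than in AU-act arrays (mean 1.45, range 1.28 to 1.72). The difference between the classes was -0.14 (two-sided permutation test, p = 0.00062), and the control is used as a measure of how much of the 5′ part was kept. The same measure from the hexokinase control probesets averaged 1.41 in AU-act and 1.79 in AI-act, a difference of -0.38 (two-sided permutation test, p = 4e-05). It was -0.395 in the spatial and -0.362 in the non-spatial task (exact permutation tests, p = 0.000777 and 0.018). The array of AI-NS rat 8 had the highest value of the beta-actin and Gapdh control, 1.92, and of the hexokinase control, 2.38. Of the neuron markers all 6 were measured, and their summed log2 level ran from 78.6 to 79.5 in AU-act and from 77.5 to 79.2 in AI-act. Their mean was higher by 0.10 in AU-act (permutation test, p = 0.00018). Of 6 CA3 pyramidal markers 3 were measured (Bok, Grik4 and Prss23), with sums of 31.2 to 33.7 in AU-act and 31.1 to 32.9 in AI-act. The smallest mean of any probeset in the table was 5.0002.

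Translation factors passed the test of AU-act against AI-act rats at shares near those of all genes and probesets. At the brightest probeset, 1 of 58 genes, Eif4g1, was higher in AU-act by limma (adjusted p under 0.05) and none was lower, where 2.05% of all genes were higher and 0.31% lower. The call of Eif4g1 was lost after centring, quantile normalization, with the replicate block, and with RNA control or dissection scores as covariates. At an unadjusted p under 0.05, 9 of the 58 (15.5%) were higher and 3 (5.17%) lower, against 9.42% and 4.56% of all genes. Over every probeset, 5 of 79 were higher and 0 lower, against 5% and 0.512%. Counting any probeset, 5 of 58 genes (8.62%) were higher, against 6.89% of all genes. The 5 are Eif4g1, Eif4g2, Eif4a2 and Eif4h, from the group of eIF4F proteins and their relatives, and Eif3c of eIF3. The median difference over the 58 genes was 0.01 on the log2 scale, against 0.00 over all genes. It was 0.00 after each array was centred on its median and -0.01 after quantile normalization, so the sign of this median rests on the scaling. In bulk tissue, fewer cells of a type and less RNA per cell cannot be told apart.

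**Figure D1:**
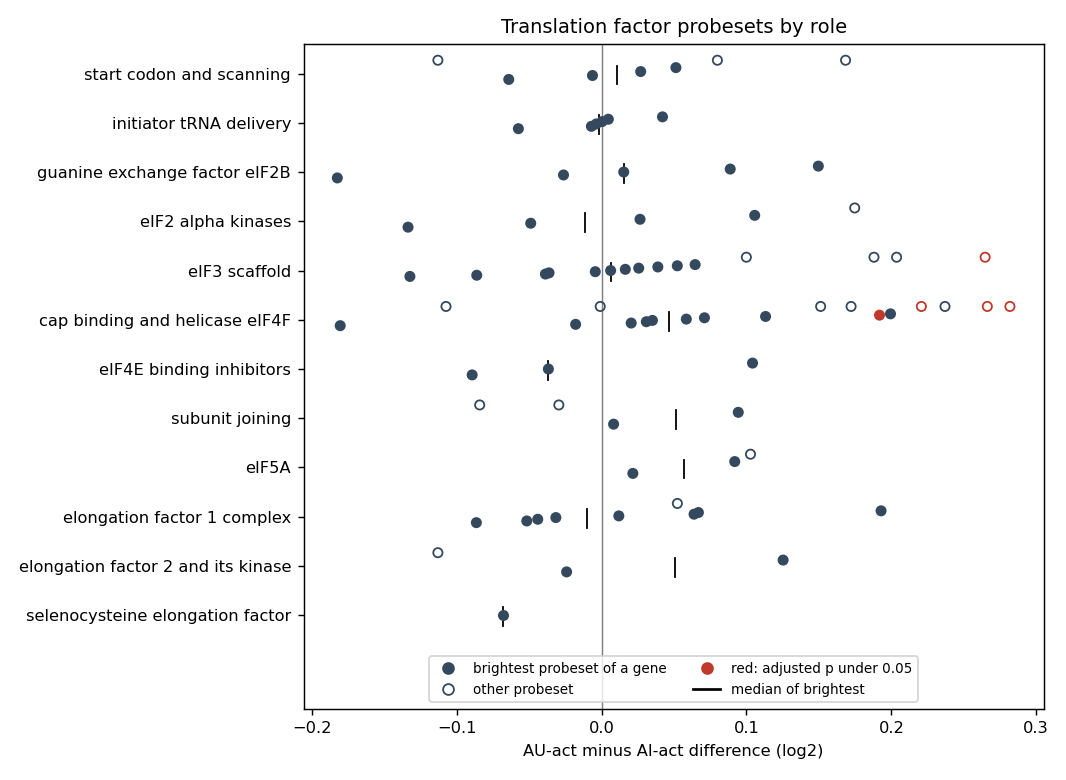
AU-act minus AI-act difference on the log2 scale (horizontal axis) of each of the 79 probesets, in rows by role. Filled points are the brightest probeset of a gene, open points are its other probesets, red marks an adjusted p under 0.05, and black ticks are the median of the filled points. All 5 red points are at the right, 4 of them in the row of cap binding and helicase factors and 1 in that of eIF3.

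The scaffold Eif4g1, which holds eIF4E, eIF4A and eIF3 together, was the only member past the threshold at its brightest probeset. The lowest, median and highest gcRMA values were 10.48, 10.66 and 11.07 in AU-act rats and 10.07, 10.54 and 10.66 in AI-act rats. The groups overlapped, with 7 of 16 AU-act rats above the highest AI-act rat and 6 of 15 AI-act rats below the lowest AU-act rat. The difference was 0.19 (SE 0.06, limma adjusted p = 0.0447), a 1.14-fold higher signal. It was no longer past the threshold in 17 of the 31 fits that left out 1 rat. The other Eif4g1 probeset, which had lower signals, differed by 0.15 (SE 0.07, adjusted p = 0.231). Its paralogue Eif4g3 differed by 0.11 (SE 0.05, adjusted p = 0.222).

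Eif4h, which stimulates the helicase eIF4A, had the smallest adjusted p of all 79 probesets. At probeset 1397675_at the lowest, median and highest values were 10.23, 10.47 and 10.82 in AU-act and 9.82, 10.23 and 10.42 in AI-act. All 16 AU-act rats lay above the AI-act mean and all 15 AI-act rats below the AU-act mean, although the ranges overlapped. The difference was 0.27 (SE 0.05, limma adjusted p = 0.00281), or 1.20-fold. The brightest Eif4h probeset, 1367531_at, differed by 0.03 (SE 0.04, adjusted p = 0.696), a value that turned below 0 after quantile normalization.

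Eif4g2, also known as DAP5, resembles the eIF4G scaffold but lacks the part that binds eIF4E. At 1397520_at the lowest, median and highest values were 12.41, 12.61 and 12.75 in AU-act and 12.01, 12.30 and 12.63 in AI-act. All 16 AU-act rats were above the AI-act mean, and 9 of 15 AI-act rats were below the lowest AU-act rat. The difference was 0.22 (SE 0.05, limma adjusted p = 0.00976), or 1.17-fold. The brightest probeset, 1367469_at, differed by 0.07 (SE 0.03, adjusted p = 0.200) and the remaining one, 1388359_at, by 0.00 (SE 0.04, adjusted p = 0.994).

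Eif4a2 is the form of the helicase eIF4A that is abundant in brain. At 1397697_at the lowest, median and highest values were 8.39, 8.67 and 9.02 in AU-act and 7.77, 8.44 and 8.92 in AI-act. The ranges overlapped widely, and 3 AU-act rats exceeded the highest AI-act rat. The difference was 0.28 (SE 0.08, limma adjusted p = 0.0404), or 1.22-fold. Its brightest probeset, 1371642_at, varied little (14.16 to 14.34 in AU-act, 14.10 to 14.25 in AI-act) and differed by 0.06 (SE 0.02, adjusted p = 0.153). The paralogue Eif4a1, with a single probeset, differed by 0.20 (SE 0.07, adjusted p = 0.0658) and had the largest positive difference among the brightest probesets of the 58 genes.

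Eif3c, a core subunit of eIF3, was the called member outside the eIF4F group. At 1397674_at the lowest, median and highest values were 9.48, 9.72 and 10.10 in AU-act and 8.78, 9.48 and 9.77 in AI-act. All 16 AU-act rats were above the AI-act mean, and the lowest value belonged to AI-NS rat 8. The difference was 0.26 (SE 0.08, limma adjusted p = 0.0356), or 1.20-fold. The brightest probeset, 1388378_at, differed by 0.06 (SE 0.07, adjusted p = 0.645).

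**Figure D2:**
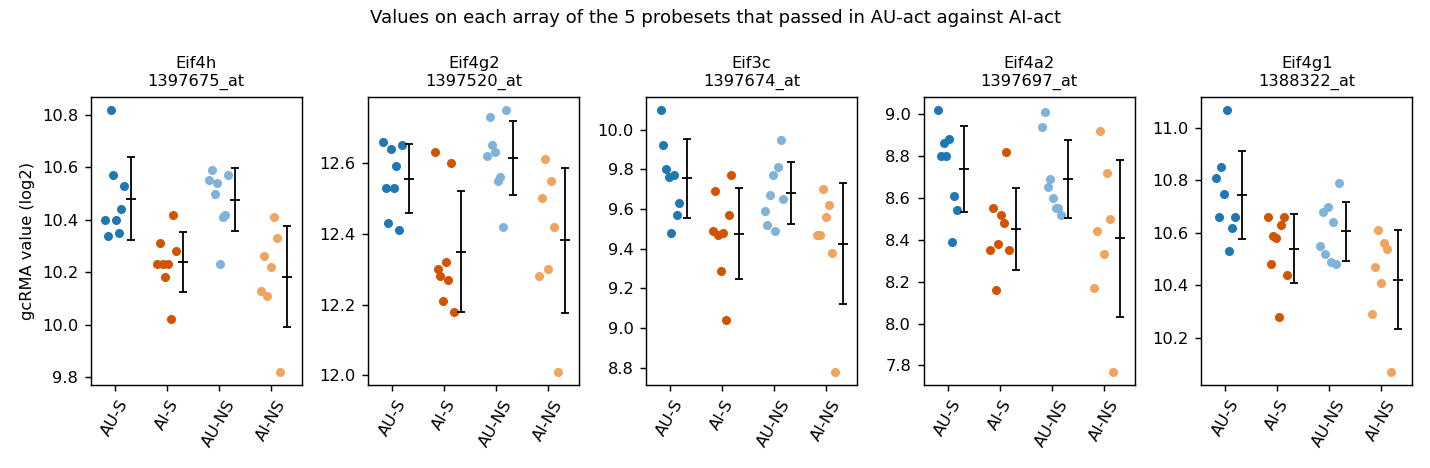
gcRMA values on the log2 scale (vertical axes) of the 5 probesets that passed in AU-act against AI-act, with 1 point per rat in each combination of class and task. Bars are the mean and SD. In each panel the lowest point is AI-NS rat 8, and the AU groups and AI groups overlap.

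The 100 bases before the annotated start of each of these 5 genes are shown because each had a probeset past the threshold. They are RefSeq sequences on the build GRCr8, 5′ to 3′ on the strand of the gene, and the search covered both strands. Capitals mark matches to the GC box GGGCGG, the ETS motif CCGGAAG, the E-box CACGTG, the cAMP response element core TGACGT or the NRF1 motif, and no matches overlap in the windows printed. The windows are chr11:93746368-93746467 for Eif4g1, chr12:27719592-27719691 for Eif4h, chr1:174628253-174628352 for Eif4g2, chr11:91275324-91275423 for Eif4a2 and chr1:190583068-190583167 for Eif3c, all on the minus strand but for Eif4h.
Eif4g1: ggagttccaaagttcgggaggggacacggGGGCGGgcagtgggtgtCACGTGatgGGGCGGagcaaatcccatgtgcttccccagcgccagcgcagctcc
Eif4h: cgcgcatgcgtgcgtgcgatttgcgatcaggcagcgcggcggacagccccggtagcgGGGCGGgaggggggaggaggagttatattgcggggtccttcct
Eif4g2: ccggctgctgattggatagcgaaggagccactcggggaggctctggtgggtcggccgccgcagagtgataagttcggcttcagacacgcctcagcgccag
Eif4a2: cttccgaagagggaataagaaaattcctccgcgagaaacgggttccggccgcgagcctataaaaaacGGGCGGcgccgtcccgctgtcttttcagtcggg
Eif3c: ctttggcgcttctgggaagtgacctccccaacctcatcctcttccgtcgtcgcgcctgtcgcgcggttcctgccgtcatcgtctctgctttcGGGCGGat

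Of the 5 windows, 4 held a GC box, Eif4g1 held 2 of them and an E-box, and Eif4g2 held no match. Windows were found for 54 of the 58 members (57 windows, since a few genes have more than 1 annotated start). A GC box was in 28 of the 57 (49.1%), against 21.6% of all 33469 windows of that length in the same table. The ETS motif was in 21.1% against 4.73%, the E-box in 12.3% against 2.79%, and the cAMP response element core in 10.5% against 4.19%. The NRF1 motif was in none of the 57 and in 0.523% of all windows. The whole table holds many genes that the arrays do not measure, so these shares are a description of sequence, and a match is not a bound site.

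In 4 of the 5 called genes the probeset that passed was not the brightest of its gene. Among the 17 members with several probesets, 4 (23.5%) were higher at another probeset while the brightest did not pass, and this was so for 18.3% of the 2394 genes with several probesets in the table. The 21 probesets of members that were not the brightest had a median difference of 0.15, and 15 of them (71.4%) were above 0. For the 3205 such probesets of all genes the median was 0.07 and 70.4% were above 0. The brightest probesets of the same 17 members had a median of 0.02, against 0.01 over all genes with several. A larger difference at the other probesets was thus also found over all genes. In Eif2ak1 the probesets had opposite signs, with -0.13 at the brightest (SE 0.05, limma adjusted p = 0.0790) and 0.17 at the other (SE 0.07, adjusted p = 0.178). Eif4b, which assists eIF4A, had -0.02 (SE 0.04, adjusted p = 0.851) at the brightest and 0.17 (SE 0.05, adjusted p = 0.0532) at the other. Where each probeset lies on its transcript is not given in the sources used here.

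**Figure D3:**
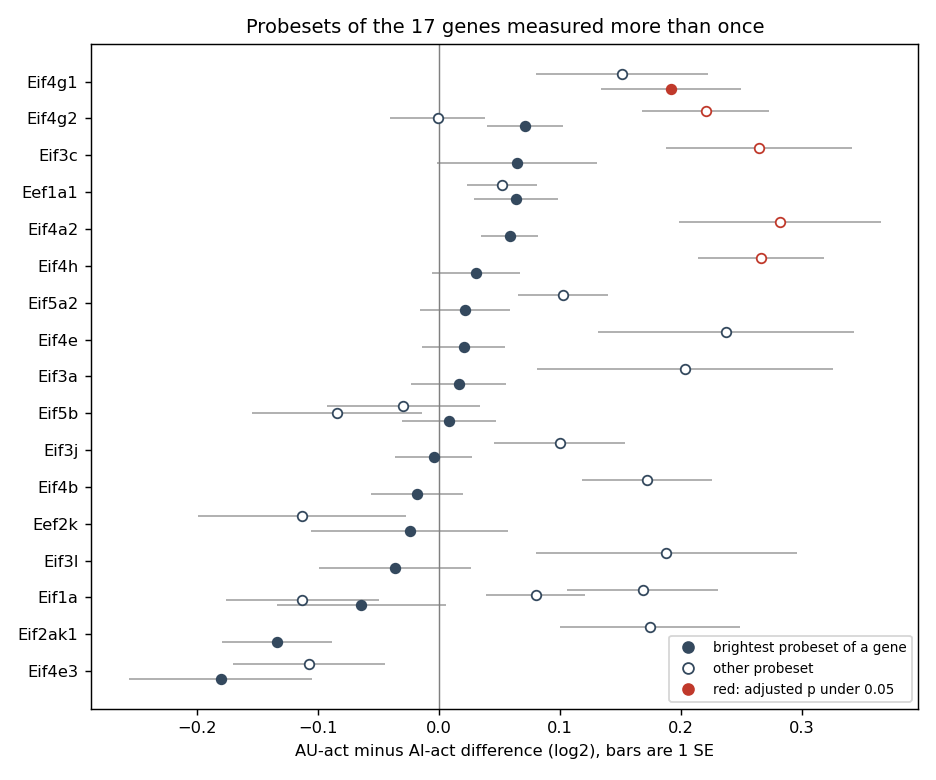
AU-act minus AI-act difference on the log2 scale (horizontal axis, bars are 1 SE) of each probeset of the 17 genes with more than 1. Filled points are the brightest probeset, open points the others, and red marks an adjusted p under 0.05. The filled points of Eif4h, Eif4a2 and Eif3c lie between 0.03 and 0.06, and their open points between 0.26 and 0.28.

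The cap-binding and helicase group as a whole had 10 genes. At the brightest probeset 8 of the 10 were above 0, with a median of 0.05 and a range from -0.18 to 0.20, and 5 (50%) had an unadjusted p under 0.05 in that direction, against 51.7% of all genes above 0 and the 9.42% given above. Centring each array left 8 above 0 and quantile normalization left 6, with medians of 0.03 and 0.02. The group was defined with earlier results of these data known, so its shares are a description and not a test. No member of it passed with the RNA control or the hexokinase control as a covariate. Eif4e3, a cap-binding protein of the eIF4E family, lay at the other end with -0.18 (SE 0.08, limma adjusted p = 0.174). Eif4e itself, the main cap-binding protein, had 0.02 (SE 0.03, adjusted p = 0.805) at the brightest probeset and 0.24 (SE 0.11, adjusted p = 0.204) at a dim one. Of the 3 genes for proteins that hold eIF4E back, none passed, where 2.05% of all genes were higher and 0.31% lower. Eif4ebp2, the 4E-binding protein best known in brain, had -0.09 (SE 0.08, adjusted p = 0.599) and Eif4enif1, which carries eIF4E into the nucleus, had 0.10 (SE 0.04, adjusted p = 0.166).

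The factors that supply initiator tRNA stayed near 0. The 6 genes of this group, among them the 3 subunits of eIF2 (Eif2s1, Eif2s2 and Eif2s3), ranged from -0.06 for Eif2s3y to 0.04 for Eif2s3 (SE 0.06 and 0.03), and their smallest adjusted p was 0.517 by limma. Both of these genes encode the same subunit, from different sex chromosomes. The 5 subunits of eIF2B, which recharges eIF2 with GTP, spread from -0.18 for Eif2b1 (SE 0.10, adjusted p = 0.342) to 0.15 for Eif2b5 (SE 0.06, adjusted p = 0.168), the catalytic subunit. Of the 4 kinases that phosphorylate eIF2, Eif2ak1 was nearest the threshold, as given above. Eif2ak3, the kinase PERK of the endoplasmic reticulum, had 0.11 (SE 0.05, adjusted p = 0.243).

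The 11 eIF3 genes had a median of 0.01 at the brightest probeset, with 6 above 0, and that median fell to -0.01 under either scaling. They ranged from -0.13 for Eif3f (SE 0.06, limma adjusted p = 0.245) to 0.06 for Eif3c. Among the 4 genes grouped by symbol under start codon and scanning, Eif1a had -0.06 (SE 0.07, adjusted p = 0.671) and Eif1ax had 0.05 (SE 0.03, adjusted p = 0.357). The other Eif1a probesets ran from -0.11 to 0.17. Of the factors of subunit joining, Eif5b had 0.01 (SE 0.04, adjusted p = 0.941) and Eif6, which keeps the large subunit free, had 0.09 (SE 0.06, adjusted p = 0.408). Eif5a had 0.09 (SE 0.05, adjusted p = 0.363) and its paralogue Eif5a2 had 0.02 (SE 0.04, adjusted p = 0.811) at the brightest probeset. The other Eif5a2 probeset, 1383867_at, had 0.10 (SE 0.04, adjusted p = 0.103) and passed as higher only with array weights.

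Elongation factors did not pass at any probeset, where 5% of all probesets were higher and 0.512% lower. Over so few probesets a count of 0 is near those shares. The 8 genes grouped by symbol with elongation factor 1, methyltransferases named after it among them, had a median of -0.01 and split evenly around 0. Eef1a2, the form of the tRNA carrier used in neurons and muscle, had 0.19 (SE 0.10, limma adjusted p = 0.281), and Eef1akmt1, a methyltransferase, had -0.09 (SE 0.07, adjusted p = 0.513). Eef2, which moves the ribosome, had 0.13 (SE 0.05, adjusted p = 0.134), and its inhibitory kinase Eef2k had -0.02 (SE 0.08, adjusted p = 0.915). Eefsec, the factor for selenocysteine, had -0.07 (SE 0.04, adjusted p = 0.359).

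AU and AI rats were also compared within each task. The 5 probesets called above were picked by the pooled fit of these same rats. Their values here therefore cannot show whether the differences came from 1 task. After spatial training no member passed at an adjusted p under 0.1 by limma, at the brightest or any other probeset, where 63 of all probesets (0.389%) were higher and 4 (0.0247%) lower in AU-S. At an unadjusted p under 0.05 there were 10 of 79 member probesets, against 12.3% of all. The 5 probesets called above had AU-S minus AI-S differences of 0.20 (Eif4g1), 0.24 (Eif4h), 0.21 (Eif4g2), 0.29 (Eif4a2) and 0.28 (Eif3c), with adjusted p-values from 0.166 to 0.288. At the brightest probesets the smallest p-values belonged to Eif4g1, to Eif3f with -0.23 (SE 0.09, adjusted p = 0.294) and to Eif4a1 with 0.21 (SE 0.09, adjusted p = 0.343). The summed level of the dentate granule markers measured, Prox1 and Calb1 (2 of 6), ran from 18.4 to 19.9 in AU-S and from 18.5 to 20.9 in AI-S, and their mean per marker differed by -0.45 (exact permutation test, p = 0.0103). With the marker scores of CA1 and dentate granule cells as covariates no member passed, nor did any of all 16204 probesets (0 higher, 0 lower).

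After non-spatial training no probeset of all 16204 passed (0 higher, 0 lower). At an unadjusted p under 0.05 by limma there were 1858 (11.5%), 1386 of them higher in AU-NS. Among the 79 member probesets there were 13, with 9 of them higher in AU-NS. The same 5 probesets had AU-NS minus AI-NS differences of 0.19 (Eif4g1), 0.29 (Eif4h), 0.23 (Eif4g2), 0.28 (Eif4a2) and 0.25 (Eif3c), with adjusted p-values from 0.198 to 0.459. The smallest p-values at brightest probesets were those of Eefsec, with -0.17 (SE 0.06, adjusted p = 0.346), Eif4enif1, with 0.15 (SE 0.06, adjusted p = 0.346), and Eif2ak1, with -0.16 (SE 0.07, adjusted p = 0.369). The largest differences were at dim or second probesets, 0.43 for Eif4e at 1386997_at (SE 0.17, adjusted p = 0.345) and 0.39 for Eif3l at 1390880_at (SE 0.13, adjusted p = 0.277), where AU-S minus AI-S was 0.06 and -0.01.

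The spatial and non-spatial comparisons share no rat. Of the 58 genes, 40 (69%) had differences of the same sign in both at the brightest probeset, and so had 62.7% of all genes. Over all probesets the shares were 73.4% of members and 65.8% of all. The RNA control difference between AU and AI rats was -0.11 in the spatial task and -0.18 in the non-spatial task, so it had the same sign in both as well, and its part in these shares was not tested.

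**Figure D4:**
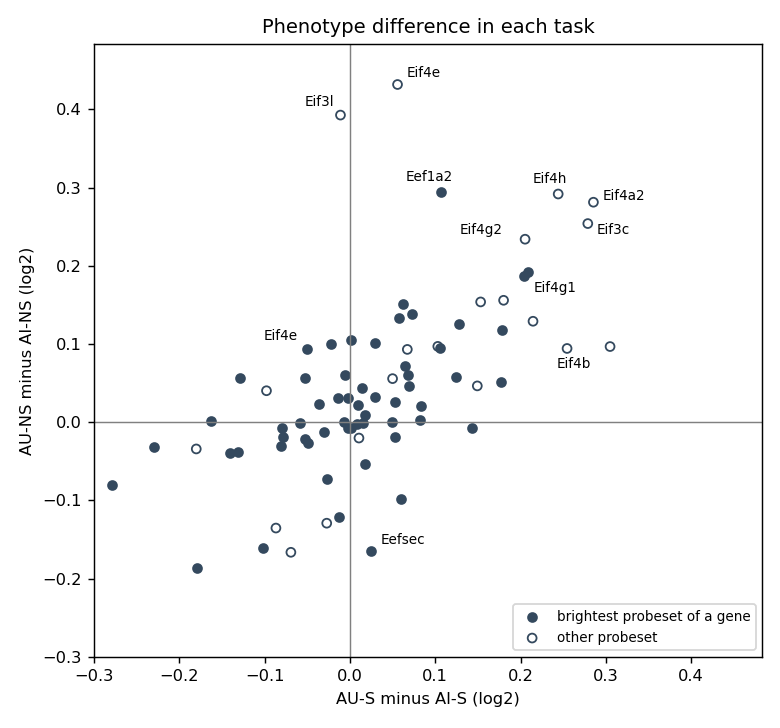
AU-S minus AI-S difference (horizontal axis) against AU-NS minus AI-NS difference (vertical axis), both on the log2 scale, for each of the 79 probesets. Filled points are the brightest probeset of a gene and open points the others. The 5 probesets called in the pooled comparison lie at 0.20 to 0.29 and 0.19 to 0.29. These 5 were picked from the same rats, which favours likeness in both tasks. Eif3l and the dim probeset of Eif4e lie near 0 on the horizontal axis only.

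The interaction, which tests whether the difference between AU and AI itself differs between tasks, was passed by no member and no other probeset (0 of 16204), although 396 probesets (2.44%) and 2 of the 79 of members had an unadjusted p under 0.05. Among members the smallest p at brightest probesets belonged to Eefsec, with 0.19 (SE 0.07), Eif4e, with -0.14 (SE 0.06), and Eif1ax, with -0.10 (SE 0.06), each at a limma adjusted p of 1.00. Eefsec values ran low in AU-NS, where the difference to AI-NS was -0.17, against 0.02 in the spatial task. For the 5 called probesets the interaction lay between -0.05 and 0.02. They were picked by the pooled fit of the same rats, which favours probesets that differ alike in both tasks.

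Task made no difference that passed within either class. In AU rats, spatial against non-spatial training passed at no member and at none of all probesets (0 higher, 0 lower), with 1316 of all (8.12%) and 10 of 79 member probesets at an unadjusted p under 0.05. Eef2k was at 0.29 for AU-S less AU-NS (SE 0.10, limma adjusted p = 0.605) at its brightest probeset, Eif3k had 0.20 (SE 0.08, adjusted p = 0.605) and Eif6 had 0.19 (SE 0.08, adjusted p = 0.605). In AI rats again none passed (0 higher, 0 lower), with 662 of all (4.09%) and 4 of 79 member probesets at an unadjusted p under 0.05. The same Eif6 probeset was at 0.18 for AI-S less AI-NS (SE 0.07, adjusted p = 0.862), Eif5a2 had -0.13 (SE 0.06, adjusted p = 0.862) and Eef1akmt1 had 0.16 (SE 0.08, adjusted p = 0.862). Medians over the 58 genes were 0.00 in AU rats and 0.04 in AI rats, against 0.00 and 0.01 over all genes.

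The 5 called probesets were then set against the RNA control difference of each array, within a class, in 10 relations adjusted together. Eif4g2 at 1397520_at fell with it in AI-act rats (Pearson r = -0.832, Spearman rho = -0.918, permutation p = 1e-05 for both, the smallest that 100000 resamples can give, adjusted p = 1e-04), and r was -0.782 without the pair of arrays farthest from the median. For Eif3c, Eif4h and Eif4a2 in AI-act rats r was -0.800, -0.723 and -0.710 (adjusted permutation p = 0.00855, 0.0125 and 0.0121), and rho was -0.536, -0.518 and -0.611 (adjusted permutation p = 0.103, 0.103 and 0.059). Without the farthest pair r was -0.519, -0.428 and -0.507, so much of these relations rested on those arrays. Eif4g1 had r = -0.523 in AI-act and 0.518 in AU-act (adjusted permutation p = 0.0804 for both), and -0.205 and 0.105 without the farthest pair. In AU-act rats no relation passed, with r between -0.474 and 0.518. The nearest was Eif4g2, with r = -0.474 and rho = -0.621 (adjusted permutation p = 0.0866 and 0.059), and whether the relation differs between the classes was not tested.

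**Figure D5:**
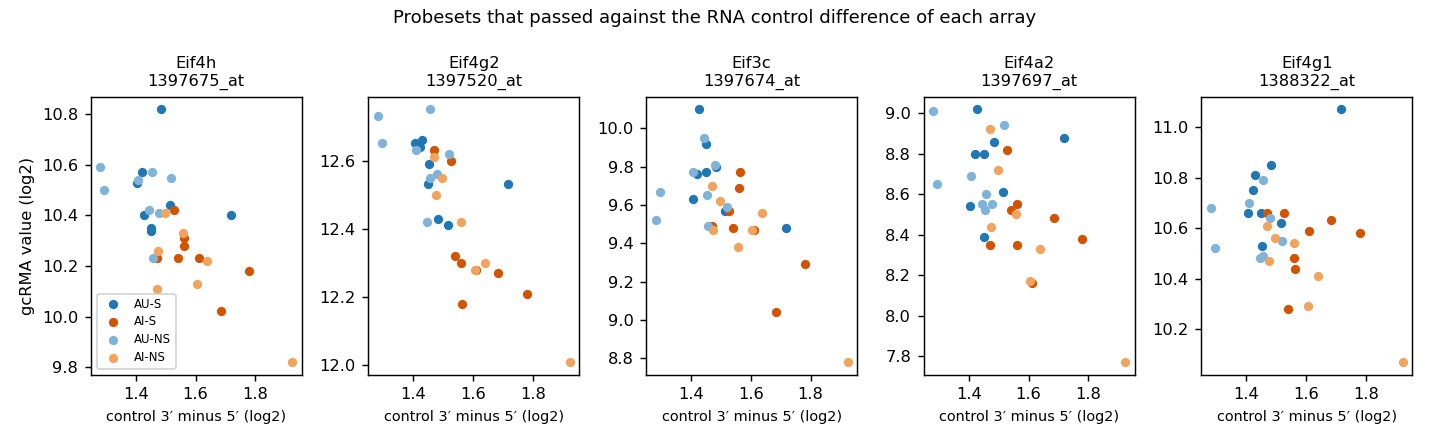
gcRMA value on the log2 scale (vertical axes) of the 5 called probesets against the RNA control of the same array (horizontal axes, signal at the 3′ end less that at the 5′ end, log2), with 1 point per rat and colours for the 4 groups. AI-NS rat 8 is the point at 1.92, at the bottom of every panel. Eif4g2 falls along the axis in AI rats, with r = -0.832.

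With the RNA control difference as a covariate, none of the 5 probesets passed in AU-act against AI-act by limma, nor did any other member. The difference shrank from 0.27 to 0.17 for Eif4h (adjusted p = 0.230), from 0.22 to 0.09 for Eif4g2 (adjusted p = 0.475), from 0.28 to 0.15 for Eif4a2 (adjusted p = 0.549) and from 0.26 to 0.10 for Eif3c (adjusted p = 0.633). For Eif4g1 it was 0.18 (adjusted p = 0.315) in place of 0.19. Over all probesets 1 passed, where 810 higher and 83 lower ones had. With the hexokinase control as the covariate none of all 16204 passed (0 higher, 0 lower, with 1195 at an unadjusted p under 0.05). The 5 differences were then 0.12 (Eif4g1), 0.11 (Eif4h), 0.06 (Eif4g2), 0.01 (Eif4a2) and 0.04 (Eif3c), with adjusted p-values from 0.715 to 0.993 by limma. Both controls are themselves lower in AU rats, so class and RNA control cannot be fully told apart here. Leaving out AI-NS rat 8 gave 0.24 for Eif4h (adjusted p = 0.00383) and 0.20 for Eif4g2 (adjusted p = 0.0174), which still passed. It gave 0.22 for Eif3c (adjusted p = 0.0517), 0.23 for Eif4a2 (adjusted p = 0.0661) and 0.16 for Eif4g1 (adjusted p = 0.0765), which did not. With the marker scores of CA1 and dentate granule cells as covariates, Eif4h, Eif4g2 and Eif4a2 passed (0.27, 0.215 and 0.28). Eif3c and Eif4g1 did not (limma adjusted p = 0.0559 and 0.0562). These scores differed between AU-act and AI-act by -0.03 for CA1 and -0.14 for dentate granule cells (permutation tests, p = 0.831 and 0.238). The neuron markers, which were higher in AU-act, were not used as a covariate.

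Other genes of translation gave the members a frame. Of 63 such genes in 7 lists, 55 were measured, and none passed in AU-act against AI-act at the brightest probeset by limma (0 higher, 0 lower, with 6 at an unadjusted p under 0.05). Of all 9037 genes, 2.05% were higher and 0.31% lower, and 1263 had an unadjusted p under 0.05. The median difference of the 55 was 0.02. Mknk2, a kinase of eIF4E, had -0.16 (SE 0.06, adjusted p = 0.153), Mtrf1, a mitochondrial release factor, had 0.11 (SE 0.04, adjusted p = 0.156), and Gcn1, which activates the kinase Eif2ak4, had 0.25 (SE 0.10, adjusted p = 0.163). The list of mTOR and S6 kinase signalling, which controls the 4E-binding proteins, had 13 of 14 genes measured, a median of 0.02 and a range from -0.04 to 0.10. In the response to eIF2 phosphorylation, 6 of 8 were measured, with a median of 0.02. No gene of these lists passed in the other comparisons either, where between 0 and 4 of the 55 had an unadjusted p under 0.05. Of all 9037 genes at the brightest probeset, between 226 and 798 had such a p in those comparisons. At most 7 of them were higher and 1 lower past the threshold, both in AU-S against AI-S.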

How the data were processed

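CA3 RNA of 31 aged rats was measured on Affymetrix arrays, 1 per rat, so replicates were separate animals. The authors made the deposited log2 values with gcRMA (version not given in the sources used here) and left out 1 AI-NS array. They set a low intensity limit of 4. The smallest probeset mean in the deposited table was already 5.0002, so applying that limit here removed none of its 16204 probesets. Arrays hold no read depth, so precision is limited by how many rats were measured. Groups came from sample titles. Gene names came from the platform annotation, with 12242 probesets naming 1 gene, 293 several and 3669 none, and symbols were checked against RefSeq (GRCr8).

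Groups were compared with limma 3.58.1 in R 4.3.3 (lmFit, eBayes, two-sided, Benjamini-Hochberg over all probesets), at an adjusted p of 0.05 for AU-act against AI-act and 0.1 otherwise. The code was tested on simulated data. Alternatives were other scalings, intensity limits, priors, array weights, covariates (RNA control, hexokinase control, dissection scores), the replicate number as a block, a fit of 4 groups, SAM (100 permutations) and each array left out. RNA control and dissection covariates together were chosen after seeing the data. Permutation tests were two-sided, exact for single tasks and with 100000 resamples otherwise. Figures used Python 3.11 and matplotlib 3.10.9.

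The members, their roles and the other lists were chosen with earlier results of these data known. Named genes are all members with a called probeset (every probeset of theirs), the highest and lowest of each role in the pooled comparison, the 3 smallest p-values at brightest probesets in each other comparison, and the 3 smallest among other translation genes. Other members and probesets named were chosen after their values were seen.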

Additional observations from a re-analysis of the deposited data

Results flagged for a closer look

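For the 5 genes with a called probeset, every probeset was checked in each of the 4 groups for a rat far from the rest of its group, by the gap to the nearest rat over the range of the group. Of 44 such groups 3 were flagged, and chance alone flags about 1 in 20. At the called Eif3c probeset, 1397674_at, AI-NS rat 8 had 8.78, with the nearest AI-NS rat at 9.38. At the brightest Eif4a2 probeset, 1371642_at, AU-S rat 1 had 14.16, with the nearest at 14.24. At the dim Eif4g1 probeset, 1385152_at, AI-S rat 7 had 6.32, with the nearest at 5.82.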

How the results depend on the processing

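At any probeset, 5 member genes passed in AU-act against AI-act. This count was 4 or 5 with other scalings, intensity limits and a trend prior, 6 in the fit of 4 groups, 7 with array weights and 8 with SAM, where Eif4a1, Eif4b and Eif2ak1 (lower) were added. It fell to 3 with dissection scores, and to 0 with the RNA control, the hexokinase control, or RNA control and dissection scores together (added after seeing the data). Over all 16204 probesets, 810 higher and 83 lower became 787 and 82 in the fit of 4 groups and 1132 and 155 with array weights. The same numbers were 1149 and 208 with SAM and 792 and 66 with dissection scores, so the rise with array weights and SAM was general. At the brightest probeset the count of 1 (Eif4g1) was 0 after centring, quantile normalization, either RNA control, dissection scores, RNA control with dissection scores, or the replicate block, 2 with array weights, 3 with SAM and 5 for any probeset. After spatial training the count at any probeset was 0 and became 3 with array weights (Eif4b, Eif4g2 and Eif4h), and after non-spatial training it became 1 (Eif4h) in the fit of 4 groups. Over all 16204 probesets the spatial 63 higher and 4 lower became 478 and 73 with array weights. The non-spatial 0 higher and 0 lower became 157 and 6 in the fit of 4 groups. Leaving out 1 rat moved the pooled counts between 2 and 7 at any probeset and between 0 and 2 at the brightest, and the spatial count between 0 and 4. Eif4h and Eif4g2 passed in all 31 of these fits (adjusted p up to 0.00596 and 0.0193), while Eif3c was lost in 10, Eif4a2 in 15 and Eif4g1 in 17. The pooled count was 2 without AI-NS rat 8 or AU-S rat 1, 2, 3 or 4, and 3 without AI-NS rat 1 or 5, AU-NS rat 2 or 4, AI-S rat 4, 6 or 8, or AU-S rat 5. The spatial count was 1 without AI-S rat 1 and 4 without AI-S rat 7. With the replicate number as a block, 2 members passed (Eif4g2 and Eif4h), and no pairing was seen, since same-numbered rats correlated between -0.391 and 0.311. Over all genes at the brightest probeset, 185 higher and 28 lower became 130 and 52 after centring and 120 and 50 after quantile normalization. The cause of these shifts was not tested. Signs at the brightest probeset turned in 5 of the 58 genes after centring and 10 after quantile normalization (sizes up to 0.01 and 0.03), in 13 with the RNA control (up to 0.06, Eif3c among them), 12 with hexokinase (up to 0.09) and 14 with RNA control and dissection scores (up to 0.09). They turned in 6 with array weights, 2 with dissection scores and 1 with the block, all of sizes up to 0.01. The other comparisons gave 0 members under every setting run. SAM was not run for the interaction.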
